A study of Mus musculus with 4 samples.

Results

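Bach2 binding sites were mapped by chromatin immunoprecipitation followed by sequencing (ChIP-seq) in M1, a mouse myeloid leukemia cell line cultured without stimulation. Every peak of the deposited Bach2 list was taken, 1385 of the 7017 peaks that the series lists for 3 factors (19.7%), and no peak was left out. The ChIP used an in-house antibody named Bach2N2, and the series also holds 1 input DNA library made without antibody. There is 1 Bach2 library from 1 cell line, so no value below has a replicate error, and nothing separates Bach2 binding from anything else this antibody may bring down. Intervals cover counting error across peaks only, and neighbouring peaks are not independent. All positions are mm9, counted from 1.

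Bach2 is a transcriptional repressor with a BTB domain, through which proteins of this family interact with one another and with corepressors, and a basic leucine zipper, through which it binds DNA as a heterodimer with a small Maf protein. The heterodimers recognise Maf recognition elements, which resemble the sites of AP-1 and of the antioxidant regulator NRF2. Bach2 is best known in B cells, where it restrains the plasma cell programme, and in T cells and myeloid cells, where it acts beside the related heme sensor Bach1. The series belongs to a study of both Bach factors in alveolar macrophages.

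Bach2 peaks were mostly short and single. The median was 347 bp long (quartiles 281 to 430), and 928 of 1385, or 67.0% (95% Wilson interval 64.5 to 69.4), were longer than 300 bp. Only 187, or 13.5% (11.8 to 15.4), exceeded 500 bp, and 36, or 2.60% (1.88 to 3.58), exceeded 1000 bp. The peaks together covered 549 kb, which is 0.0207% of the mm9 chromosomes. The shortest had 234 bp. The summit, the base with the highest pileup, lay a median of 21.5 bp from the middle of its peak (quartiles 9.5 to 39.5), and within 50 bp of it at 84.1% of peaks (82.1 to 85.9). The summit was thus close to the middle of most peaks, although a short peak leaves little room for a larger distance. The course of the pileup within peaks was not examined.

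Height was measured as pileup, the number of fragments that overlap at the summit. It ran from 24 to 354 fragments with a median of 66 (quartiles 48 to 94), and 296 peaks, or 21.4% (19.3 to 23.6), had 100 fragments or more. Fold enrichment, the authors' ratio of pileup to the local control background, ran from 1.62 to 24.4 with a median of 4.42 (3.49 to 5.90). It was at least 5 at 533 peaks, or 38.5% (36.0 to 41.1), at least 10 at 62, or 4.48% (3.51 to 5.70), and at least 20 at 3. Stronger peaks were wider: in 4 equal classes of rising fold enrichment, median lengths were 285, 311, 350 and 445 bp. Median pileup did not follow the same steps, at 60, 55.5, 62 and 98 fragments, and was highest in the strongest class. Length and pileup had a Spearman rho of 0.56 across the 1385 peaks, and 0.65 across the 1289 whose control background, defined below, was under 5 times its lowest value. All of these points come from 1 library. Length, pileup and fold enrichment all depend on the same fragment coverage, so they are not independent measures.

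**Figure D1:**
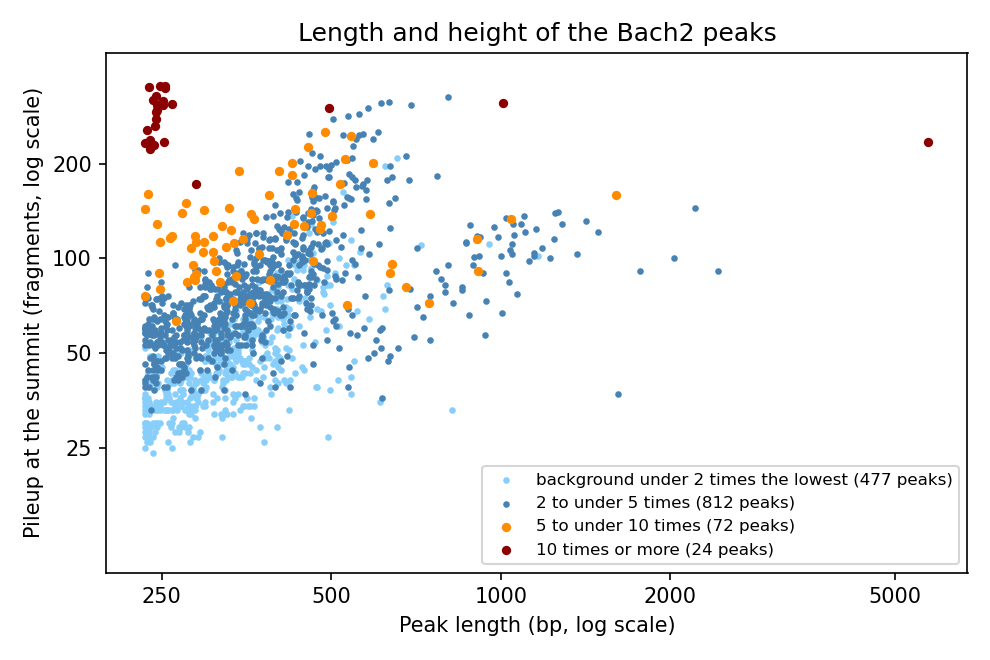
Length in bp (x axis, log scale) against pileup in fragments (y axis, log scale) of all 1385 Bach2 peaks, 1 point per peak, coloured by control background as a multiple of the lowest in the list. The 24 peaks of highest background stand apart at the upper left, apart from 3 that are longer than 300 bp, and a group of peaks near 1000 bp with pileups around 100 stands to the right.

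The height of a peak had to be read beside the control. The background at each summit was recomputed from pileup and fold enrichment and is given as a multiple of its lowest value in the list. It was at the lowest value at 79 peaks (5.70%), where the median pileup was 37 and the median fold enrichment 5.75. A further 398 peaks lay above the lowest and under 2 times it, with a median pileup of 46 and a median fold enrichment of 4.86. At 812 peaks (58.6%) it was 2 to under 5 times the lowest, and the medians were 75 fragments and 4.17. At 96 peaks (6.93%) it was 5 times or more, with 134.5 fragments and 3.03. From the first class to the last the pileup was higher and the fold enrichment lower. The weakest peak of each class followed the same order, with a fold enrichment of 4.08 at the lowest background, 2.89 in the next class, 1.91 at 2 to under 5 times and 1.62 at 5 times or more. The classes are built from pileup and fold enrichment themselves, and the list was cut at a q threshold. These orders are therefore in part set by construction and are no result about binding.

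A group of 24 peaks on 15 chromosomes had a background of 10 times the lowest or more. They were among the highest of the list by pileup, with a median of 298.5 fragments (range 172 to 354), and their fold enrichment was 1.62 to 3.91. Both are in part set by the choice on background, which is computed from them. Of the 24, 21 were at most 300 bp long, with a median of 244 bp. The extreme was a 261 bp peak on chromosome 1 at 194289928 to 194290188, where a pileup of 309 stood on a background 33.9 times the lowest and the fold enrichment, 1.62, was the lowest of all peaks. The longest peak of the list belonged to the same group: 5742 bp on chromosome 17 at 39980015 to 39985756, with a pileup of 235, a fold enrichment of 2.45 and a background 17.0 times the lowest. A neighbouring pair on chromosome 8, at 125949773 to 125950779 and 125957865 to 125958360, had pileups of 313 and 301 and fold enrichments of 2.19 and 2.49. What raises the input at these sites was not tested.

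The list held 17 peaks with a pileup of 300 or more, and they were of different kinds. At 5 of them the fold enrichment was 12.4 to 20.1, the length 580 to 805 bp and the background at most 4.48 times the lowest. At the other 12 the fold enrichment was 1.62 to 3.36, the median length 251 bp and the background at least 16.3 times the lowest. The tallest peaks of all, on chromosome 4 at 55879475 to 55879722 and on chromosome 6 at 46342406 to 46342658, both had a pileup of 354 and were of the second kind, with fold enrichments of 2.95 and 2.88. Ranking by pileup and ranking by fold enrichment therefore lead to different peaks.

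**Figure D2:**
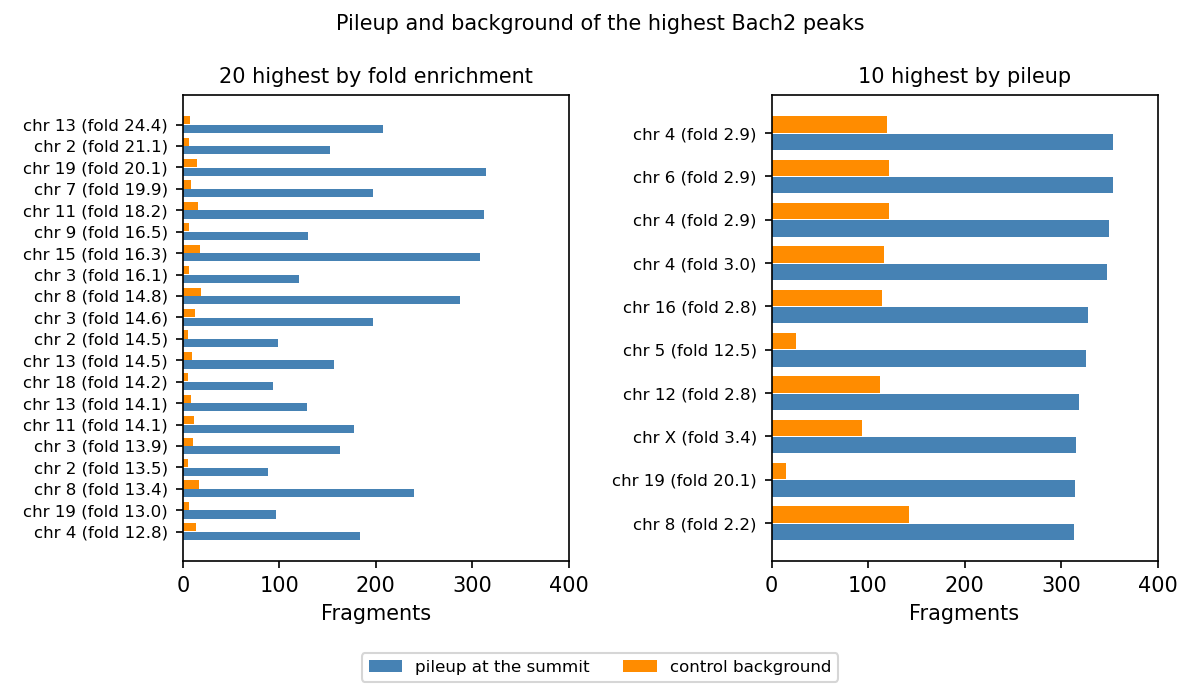
Pileup (blue) and recomputed control background (orange), both in fragments, for the 20 Bach2 peaks with the highest fold enrichment (left) and the 10 with the highest pileup (right), labelled by chromosome and fold enrichment. Of the 10 highest by pileup, 8 have a background of 93.3 to 143 fragments and a fold enrichment of 2.19 to 3.36. Only those on chromosomes 5 and 19 have a lower background, 25.1 and 14.7 fragments, where the median of the list is 14.4.

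By fold enrichment, the strongest Bach2 peak lay on chromosome 13 at 45719045 to 45719698, with a pileup of 208 and a fold enrichment of 24.4. The next was on chromosome 2 at 103986022 to 103986487, with 153 fragments and 21.1. Next came chromosome 19, where the peak at 10052790 to 10053421 had 314 fragments and 20.1. Only 2 peaks exceeded its fold enrichment and only 8 its pileup. On chromosome 7, the peak at 111009261 to 111009883 had 197 fragments and 19.9, and on chromosome 11 that at 60748743 to 60749355 had 312 and 18.2. Fold enrichment was 16.5 at the peak on chromosome 9 that spans 122380607 to 122381109. It was 16.3 on chromosome 15 (97616953 to 97617644), 16.1 on chromosome 3 (107626146 to 107626601) and 14.8 on chromosome 8 (79975256 to 79975814). The remaining 11 of the 20 strongest had fold enrichments of 12.8 to 14.6 and lay on chromosomes 2, 3, 4, 8, 11, 13, 18 and 19.

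As a class, the 20 strongest peaks were wide. They were chosen by fold enrichment, so their height above the input, and in part their background, follow from that choice. Their length was 419 to 692 bp with a median of 514, their pileup 88 to 314, and their background 1.00 to 3.29 times the lowest. They were about as far from other Bach2 peaks as the list as a whole, with a median distance to the nearest summit of 271836 bp against 292635 bp. None of the 20 (0%, Wilson interval 0 to 16.1) had another Bach2 summit within 10 kb, against 13.3% of the list, and 2 of them (10%, 2.79 to 30.1) had one within 50 kb, against 23.3%, so neither share is resolved from that of the list. The 5 peaks next to the median of the list, all with a fold enrichment of 4.42, had lower pileups, 55 or 59. Their lengths were 296 bp on chromosome 9 (112901725 to 112902020), 326 and 361 bp on chromosome 10 (61972136 to 61972461 and 127382402 to 127382762), 492 bp on chromosome 17 (44299255 to 44299746) and 311 bp on chromosome 18 (50183750 to 50184060). The peak on chromosome 17 was as long as some of the 20 strongest. The weakest chromosome by its best peak was X, where the highest fold enrichment was 8.52 (166232880 to 166233275), followed by chromosome 14 with 9.27 (56532149 to 56532548). On each of the other 18 chromosomes with a peak, the best peak exceeded 10.

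Bach2 peaks were found on all autosomes and X, and the list held none on Y or on the mitochondrial genome. Their density was 0.522 per Mb over the mm9 chromosomes, and the median autosome had 0.509 per Mb. Chromosome 13 was the densest, with 121 peaks or 1.01 per Mb (exact Poisson 95% interval 0.835 to 1.20), 1.98 times the median autosome. Chromosome 11 followed with 107 peaks or 0.878 per Mb (0.720 to 1.06), and chromosome 19 with 53 or 0.864 (0.647 to 1.13). The intervals of these 3 overlapped, so their order is not resolved. The sparsest autosomes were chromosome 12 with 37 peaks or 0.305 per Mb (0.215 to 0.421) and chromosome 18 with 31 or 0.342 (0.232 to 0.485).

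Chromosome X held 14 peaks or 0.0840 per Mb (0.0459 to 0.141), 0.165 times the median autosome, and its interval lay below that of every autosome. The same ratio was 0.263 in the Bach1 list and 0.136 in the Mafk list, so a low density on X was common to the 3 lists. Of the 14 X peaks, 2 belonged to the sites of very high background, at 30746998 to 30747235 and 147299927 to 147300177. The other 12 had fold enrichments of 3.75 to 8.52 and pileups of 30 to 120. The widest stretch between neighbouring Bach2 summits in the genome was also on X, 35.4 Mb from 35826755 to 71244818, and the next 2 were there too, at 27.3 Mb each.

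**Figure D3:**
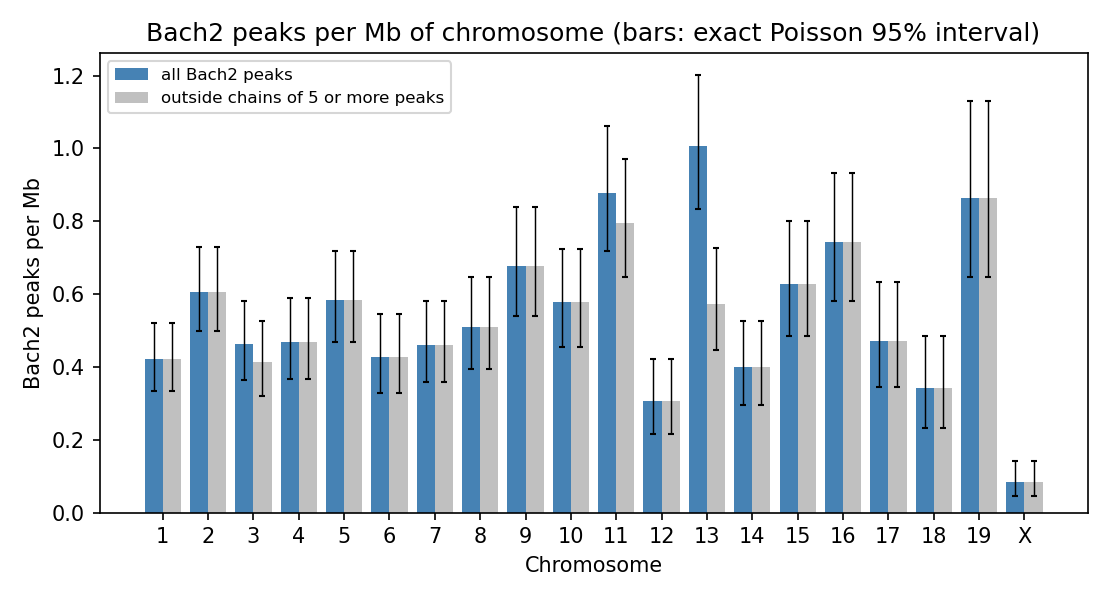
Bach2 peaks per Mb (y axis) on each autosome and X, for all peaks (blue) and for peaks outside chains of 5 or more (grey), with exact Poisson 95% intervals as error bars. Chromosome 13 is highest with all peaks, at 1.01 per Mb, and at 0.574 per Mb outside the chains, whereas X is lowest at 0.0840 per Mb.

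The excess on chromosome 13 came from a small part of it. Between 21807266 and 23870655, a stretch of 2.06 Mb held 54 peaks, 44.6% of the 121 on the chromosome and 3.90% of the list, or 26.2 per Mb. The remaining 67 peaks of the chromosome gave 0.567 per Mb, near the median autosome. Cut into windows of 1 Mb, the genome had 2665 windows, of which 1807 (67.8%) held no Bach2 peak and 558 (20.9%) held 1. Only 2 windows held more than 8, both touching this stretch of chromosome 13, with 30 peaks from 23 to 24 Mb and 19 from 21 to 22 Mb. In the same stretch the Bach1 list had 49 summits and the Mafk list 2, although both other lists are longer. Chromosome 13 as a whole was 1.03 times the median autosome in the Bach1 list and 0.968 times in the Mafk list. These differences between lists were not tested.

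Most Bach2 peaks had no close neighbour, but a minority was tightly grouped. The median distance from a summit to the nearest other Bach2 summit was 293 kb (quartiles 57.0 to 945). Another summit lay within 1 kb of 52 peaks, or 3.75% (2.87 to 4.89), within 10 kb of 184, or 13.3% (11.6 to 15.2), and within 50 kb of 323, or 23.3% (21.2 to 25.6). In the Bach1 list, 16.1% (15.0 to 17.3) had a neighbour within 10 kb and in the Mafk list 3.81% (3.01 to 4.81), but longer lists have closer neighbours by arithmetic. With each list at its 1385 strongest peaks by fold enrichment, the shares were 6.14% (4.99 to 7.53) for Bach1 and 2.82% (2.07 to 3.83) for Mafk. The Bach2 value of 13.3% covers weak peaks too. Among the Bach2 peaks at or above the median fold enrichment it was 7.77% (6.00 to 10.0) of 695, and without the chains of 10 or more peaks described below it was 10.5% (9.00 to 12.3).

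The share of peaks with a close neighbour was highest in the weakest class of fold enrichment. In the same 4 classes of rising fold enrichment, 19.0% (15.2 to 23.5), 11.6% (8.61 to 15.4), 10.1% (7.34 to 13.7) and 12.5% (9.39 to 16.4) had a neighbour within 10 kb. Above the weakest class the share lay between 10.1% and 12.5% and did not fall or rise steadily. The differences between classes were not tested, and neighbouring peaks are not independent. Peaks with such a neighbour were longer than the list, with a median of 450.5 bp against 347 bp, and higher, with 80 fragments against 66, at a fold enrichment of 4.09 against 4.42. Their background was 3.05 times the lowest in the median, against 2.56 times for the list. Without the chains of 10 or more, the peaks with a neighbour within 10 kb had a median length of 402 bp and a fold enrichment of 3.71. The part of the background in this was not tested.

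**Figure D4:**
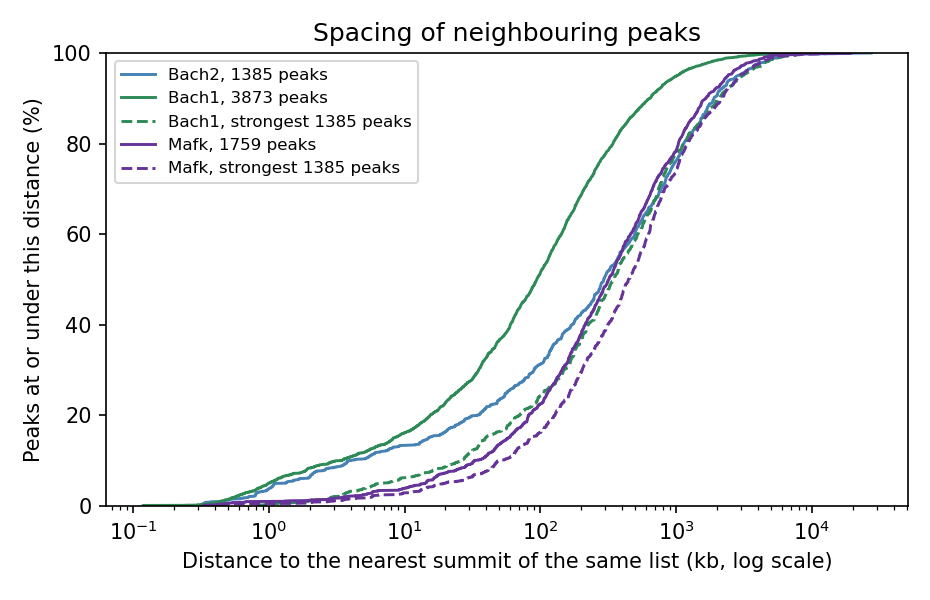
Share of peaks in percent (y axis) whose nearest summit of the same list lies at or under a given distance in kb (x axis, log scale), for the Bach2 list, the full Bach1 and Mafk lists (solid) and their 1385 strongest peaks (dashed). At 10 kb the Bach2 line stands at 13.3%, the strongest Bach1 peaks at 6.14% and the strongest Mafk peaks at 2.82%.

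Peaks whose neighbouring summits lay at most 50 kb apart were joined into chains. Of the 1385 peaks, 1062 stood alone, and the others formed 105 pairs, 14 chains of 3 or 4 peaks and 7 chains of 5 or more. The 7 longest chains held 70 peaks, 5.05% of the list, and lay on chromosome 13 (4 chains), chromosome 11 (2) and chromosome 3 (1). Long chains were not particular to Bach2: the full Bach1 list formed 25 chains of 5 or more, the longest of 35 peaks, and the Mafk list 0. Restricting a list to strong peaks lowered the number of chains. The 1385 strongest Bach1 peaks formed 1 chain of 5 or more. The Bach2 peaks at or above the median fold enrichment formed 3 chains of 3 or more, against 21 in the whole list. These 3 were what remained of the 3 longest chains, all on chromosome 13, and each still held 5 or more peaks. The longest Bach2 chains were thus thinned but not lost.

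The 4 chains on chromosome 13 held 52 peaks. The longest ran from 21807266 to 21927105 with 18 peaks over 119 kb, at a median spacing of 3.14 kb. Its fold enrichments were 2.57 to 7.42 (median 5.07), its pileups 50 to 134 and its lengths 235 to 2029 bp (median 964.5). The chain from 23622831 to 23714437 had 17 peaks at a median spacing of 3.18 kb, with fold enrichments of 3.66 to 7.81 (median 5.55) and a median length of 972 bp. The chain from 23775162 to 23870655 had 12 peaks, with fold enrichments of 4.02 to 7.98 (median 5.41) and a median length of 893.5 bp. The shortest, from 22126659 to 22135941, packed 5 peaks into 8.15 kb, with fold enrichments of 3.66 to 6.36 (median 4.10) and a median length of 877 bp. Its median fold enrichment was below that of the list, 4.42. The 4 chains were alike in pileup, with medians of 95 to 113 fragments, and in width, with median lengths of 877 to 972 bp against 347 bp for the list.

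This part of chromosome 13 is known as background to carry the large cluster of replication-dependent histone genes, short genes that lie a few kilobases apart and encode the core and linker histones. The placement rests on general knowledge of the mouse genome, since no mm9 annotation was used here, and no peak was assigned to a histone gene. The chain on chromosome 3, from 96023805 to 96077927, lies in the part known to carry a smaller histone cluster. It had 8 peaks over 53.2 kb, with fold enrichments of 3.46 to 5.11 (median 4.08), pileups of 82 to 159 and a median length of 1044 bp. Its median background was 4.82 times the lowest, against 3.04 to 3.18 times in the chains on chromosome 13.

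Peaks of the long chains differed in length and pileup from the rest of the list. The 70 peaks in chains of 5 or more were 910 bp long in the median (quartiles 733.5 to 1100.5) against 340 bp (279 to 416) for the 1315 others. Their median pileup was 99 against 64 fragments, while their fold enrichment, 4.71 against 4.42, was close to that of the others. Their background was 3.29 times the lowest in the median, against 2.40 times. Of the 36 Bach2 peaks longer than 1000 bp, 27, or 75.0% (58.9 to 86.2), were in these chains, and 22 lay on chromosome 13. None of the 100 strongest peaks was in a chain of 5 or more (0%, Wilson interval 0 to 3.70).

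**Figure D5:**
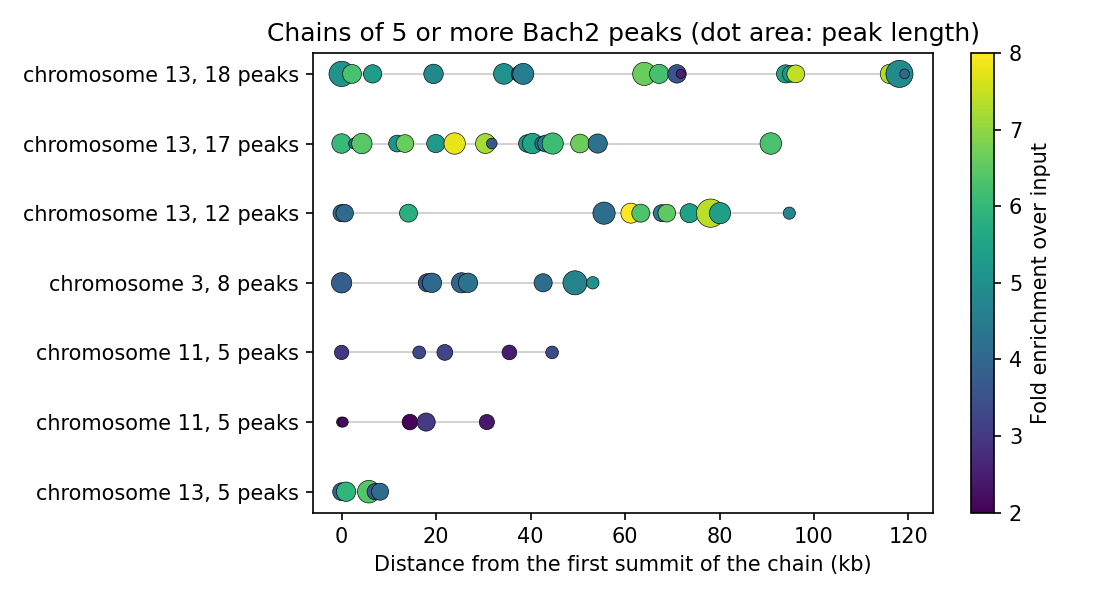
Position of each peak in the 7 chains of 5 or more Bach2 peaks, as distance in kb from the first summit of the chain (x axis), 1 row per chain. Dot area is proportional to peak length and colour gives fold enrichment. The 3 long chains on chromosome 13 hold 18, 17 and 12 peaks, mostly wide, and those on chromosome 11 hold 5 each and have the lowest median fold enrichments of the 7 chains, 2.38 and 3.21.

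The 2 chains on chromosome 11 were weaker. From 87240359 to 87285386, 5 peaks were spread over 44.6 kb at a median spacing of 11.4 kb, with fold enrichments of 2.48 to 3.39 and pileups of 55 to 80. From 101488903 to 101520311, 5 peaks had fold enrichments of 2.07 to 3.05, pileups of 81 to 96 and a median background 6.88 times the lowest, the highest of the 7 chains. All 10 peaks thus lay below the median fold enrichment of the list. Every peak of the second chain had a background of at least 5 times the lowest. With such peaks left out of the list, this chain was gone, that on chromosome 3 fell from 8 to 5 peaks, and the other 5 chains kept their number of peaks.

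Of the short chains, that on chromosome 8 was the strongest. Its peaks were at 77607542 to 77608121, with a pileup of 300 and a fold enrichment of 12.4, at 77613398 to 77613934, with 185 and 11.4, and at 77617323 to 77617564, with 58 and 3.27. Their summits, at 77607875, 77613613 and 77617420, were 5738 and 3807 bp apart. The first and second were high, and the last was low, in the weakest of the 4 classes. These positions are known as background to lie at Hmox1, which encodes heme oxygenase 1, the enzyme that breaks down heme and the classic target of Bach repression, with enhancers upstream of its promoter. Another chain with a strong member was on chromosome 1, from 132916060 to 132922871, where fold enrichments were 3.19, 6.61 and 11.5. On chromosome 4, 4 peaks from 132085216 to 132180606 had 3.56, 4.21, 6.82 and 8.80. On chromosome 11, 3 peaks from 75272281 to 75274956 had pileups of 63, 178 and 201 within 2.3 kb and fold enrichments of 4.17, 6.41 and 5.61. On chromosome 5, 3 peaks from 66478262 to 66497103 had 4.15, 3.26 and 9.65. The highest fold enrichment was at an end of the chains on chromosomes 1, 4, 5 and 8 and in the middle of that on chromosome 11. In chains this short an end peak is often the highest by arithmetic. These chains are examples, chosen after their values were seen.

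Of the strongest peaks by fold enrichment, 2 also lie at loci known for Bach regulation, again from general knowledge and chosen after their values were seen. The peak on chromosome 19 at 10052790 to 10053421 (fold enrichment 20.1) lies near Fth1, which encodes the heavy chain of ferritin, the iron storage protein. It had a second, weaker Bach2 neighbour 39.5 kb away. The peak on chromosome 7 at 111009261 to 111009883, with 19.9, lies in the beta-globin region, whose distal locus control region carries Maf recognition elements. The nearest other Bach2 summit was 1.90 Mb away. Other genes known as Bach targets were not looked up, and no sequence is printed, because mm9 annotation and sequence were not used here.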

How the data were processed

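Bach2 ChIP-seq was analysed from 1 deposited peak list; the Bach1 and Mafk lists served only for comparison, and the input library has no table of its own here. Per the submitters' processing notes, CASAVA 1.8, BWA 0.7.10, MACS2 2.1.0 and mm9 were used; settings are not given in the sources used here. The deposited pileup is a signal, whole numbers throughout. The deposited fold enrichment is a ratio over the control. Peak names carry a q threshold of 0.01. Read depth is unknown from these lists.

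The control background at a summit is (pileup + 1) / (fold enrichment) minus 1, with 1 as the MACS2 pseudocount; its lowest value was matched with a tolerance of 0.001. Distances are between summits, and chains join summits at most 50 kb apart. Chromosome lengths of mm9 came from GenomeInfoDb 1.38.1. Shares have Wilson and densities exact Poisson 95% intervals (Python 3.11.15, scipy 1.17.1). No test was run, because there is 1 library. The spacing and chain code was tested on simulated positions.

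Peaks named were the 20 highest by fold enrichment, the 10 highest by pileup, the 5 longest, 5 at the median and 5 lowest, the best of each chromosome, chains of 5 or more and the 10 closest pairs, of which examples are printed. Peaks on X, at high background and in shorter chains were chosen after their values were seen. The peaks and rules were chosen with earlier results of these data known. Planned start site distances, gene lists and motifs were not run, since they need mm9 annotation and sequence.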

Additional observations from a re-analysis of the deposited data

How the results depend on the processing

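Of 21 alternative values, 12 stayed within the counting interval of the main value or, for chains, within 1.5 times of it, and 9 moved. At or above the median fold enrichment, the median length was 397 bp instead of 347, the median pileup 78 fragments instead of 66, the share with a neighbour within 10 kb 7.77% instead of 13.3%, and 3 chains of 3 or more peaks were left instead of 21; fewer peaks enter by construction. With the 96 high-background peaks left out, those at 5 or more times the lowest, the median pileup was 63. The share was 10.3% within 5 kb and 23.3% within 50 kb, which follows from the distance, and 10.5% without the chains of 10 or more peaks. A gap of 100 kb gave 33 chains. Counting each chain of 10 or more as 1 site made chromosome 11 the densest autosome, at 1.73 times the median, in place of chromosome 13 at 1.98 times. The settings without chains of 10 or more, and the median fold enrichment for the chain count, were chosen after seeing the data. Start site distances and motifs were not run. No paired analysis was possible because there is 1 library per factor, and no replicate could be left out. A site missing from the list did not pass its threshold, which does not show absence of binding.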

Other observations

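The closest neighbouring summits were 316 bp apart, on chromosome 16 at 57157685 and 57158001, with fold enrichments of 3.07 and 3.27. The 10 closest pairs lay 316 to 519 bp apart on chromosomes 6, 7, 11, 13, 14 and 16, with 3 pairs each on chromosomes 7 and 11. All 20 of their peaks had fold enrichments between 2.17 and 4.10, below the median of the list, 4.42. Stronger peaks were wider, and whether strong summits at such distances fall within the same called peak was not tested. Among the 10 closest pairs, a pair on chromosome 7 at 89919931 and 89920308 had pileups of 129 and 116 and a background over 8 times the lowest.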
